A study of Mus musculus with 18 samples.

Results

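The comparison described here is that of mRNA levels in NIH3T3 cells given Torin1 with mRNA levels in NIH3T3 cells given vehicle. NIH3T3 is an established line of mouse fibroblasts, and Torin1 blocks the kinase mTOR by competing with ATP. The labels give 200 nM of Torin1 for 3 h and a WT genotype for both groups. The growth medium of all cells was DMEM with serum. Each group held 3 mRNA libraries, so 6 of the 18 libraries of the series entered the comparison. The others were the ribosome-protected fragment (RPF, or footprint) libraries of the same groups, used below where a footprint value is named, and the libraries of cells carrying the Mtor C1483Y change. The mRNA had been broken by heat and cloned with a small-RNA kit, and the values are raw reads per gene for 24035 genes. Nothing in the labels says that the 3 libraries of a group came from separate cultures, so p-values measure only the spread between these libraries.

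As background, mTOR works in 2 protein complexes, and mTORC1 couples nutrients and growth factors to protein synthesis. It does so through S6 kinases and through the 4E-BP proteins, which, when unphosphorylated, hold back translation of TOP mRNAs. These mRNAs begin with a C and a run of pyrimidines (a terminal oligopyrimidine tract) and encode ribosomal proteins and elongation factors. mTORC1 is also known to act on transcription, by way of Srebp factors for sterol and fatty acid synthesis, Atf4 for amino acid supply, Hif1a for glycolysis, and Tfeb for lysosomes, while Foxo factors answer to Akt. The mRNA libraries bear on that second layer.

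The 6 libraries differed widely in depth and in which genes they held. They had 26.69, 94.3 and 56.34 M (1e6) gene reads for WT replicates 1, 2 and 3 and 12.06, 51.74 and 38.34 M for Torin1. Between 6751 and 7898 genes had a read in a library. Genes with 200 or more reads in the other 2 libraries of their group had 10 or fewer in 14.4%, 34.5% and 13.1% of cases in WT replicates 1, 2 and 3, and in 19.8%, 10.8% and 31.4% in Torin1. In the footprint libraries of the same groups these shares were between 0 and 1.87%. Torin1 replicate 3 was nearly identical to C1483Y replicate 2 despite its different label, with r = 0.999 over genes on the log2 scale against 0.238 to 0.495 for every other pair of mRNA libraries, so the main results below are also given without it. The 10 fibroblast markers, Col1a1, Vim and Sparc among them, were read in all 6 libraries and summed to 10500 to 18500 CPM (counts per 1e6 reads, scaled between libraries as given under the processing) in WT and 10900 to 19300 CPM under Torin1. All 6 adipocyte, 7 epithelial and 8 leukocyte and endothelial markers were at 0 in the 6 libraries, 5 or 6 of the 7 muscle markers were at 0 in each, and the 8 neuron and glia markers summed to at most 0.351 CPM.

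Only 2 genes passed the test, both lower under Torin1. In bulk libraries such as these, less RNA per cell and fewer cells holding it cannot be told apart. edgeR's quasi-likelihood test with Benjamini-Hochberg adjustment, at an adjusted p below 0.05, was run on 5945 genes, so 0.0336% of the genes tested were called. At an unadjusted p below 0.05 there were 213. Without Torin1 replicate 3, 0 of 7259 genes were called, with 285 at an unadjusted p below 0.05. Other tools on the 6 libraries called more: DESeq2 called 68 higher and 78 lower, and limma-voom 8 higher and 10 lower. Of the 146 genes called by DESeq2, 144 had 10 or fewer reads in at least 1 of the 6 libraries, and 113 had 10 or fewer in all 3 libraries of 1 group. The 18 genes called by limma-voom were all among the 33 most abundant of the genes with 200 or more reads in every library. The higher ones included Fbln2, Col1a2, Vim, Pkm, Eef1a1 and Eef2, and the lower ones Lgals1, Ftl1, Rpl41, Rplp0 and Rps3a1. Also lower were Rpph1, Rprl3 and Rmrp, with limma-voom log2 changes of -2.1, -1.12 and -0.495, and Rpph1 had the largest fall of the 18 in that fit. Plain differences of mean log2 CPM were smaller for Rpph1 and Rprl3, since none of the 50 most abundant genes lay below -0.85. Over all 18 genes, limma-voom standard errors of 0.026 to 0.24 were below those derived from the edgeR test, 0.25 to 0.43 on the log2 scale.

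Tuba4a (chromosome 1, 75214972 to 75221261, GRCm38.p6), which encodes an alpha-tubulin, the microtubule subunit, had 5554, 54591 and 4455 mRNA reads in WT replicates 1 to 3 and 3, 5 and 0 under Torin1. The groups were far apart, and the Torin1 side rests on 8 reads in all. The fitted log2 change was -11.99 ± 2.48 (SE, n = 3 and 3, edgeR adjusted p = 0.0234), and -11.25 without Torin1 replicate 3 (adjusted p = 0.0847). The call was also lost without WT replicate 2, at -10.08 (edgeR adjusted p = 1), and without Torin1 replicate 2, at -12.06 (adjusted p = 0.342). Its footprints were also lower, though far from absent. They numbered 1796, 7940 and 2643 reads in WT and 971, 1254 and 1726 under Torin1, a log2 change of -1.60 ± 0.24 (edgeR adjusted p = 0.00686).

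Haus8 (chromosome 8, 71250597 to 71272627, GRCm38.p6), a subunit of the augmin complex that nucleates microtubules within the spindle, had 1622, 65904 and 1498 mRNA reads in WT and 10, 1 and 0 under Torin1. The log2 change was -10.82 ± 2.39 (edgeR adjusted p = 0.0433), and -10.04 without Torin1 replicate 3 (adjusted p = 0.128). WT replicate 2 held most of the WT reads, and without it the change was -7.14 (edgeR adjusted p = 1). Without Torin1 replicate 2 it was -10.33 (adjusted p = 0.342), and DESeq2 gave the gene no p-value. Its footprints did not share this pattern: 272, 1252 and 353 reads in WT and 524, 281 and 2033 under Torin1, a log2 change of 0.52 ± 0.57 (edgeR adjusted p = 0.856).

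Both called genes belong to a wider class that was well read in one group and nearly unread in the other. Of the 2495 genes with 200 or more reads in each WT library, 54 had 10 or fewer reads in each Torin1 library. Of the 2249 genes with 200 or more reads in each Torin1 library, 44 had 10 or fewer in each WT library. Without Torin1 replicate 3 the numbers were 76 and 163. These genes are described by their reads, since the reads chose them. Among all 5945 genes tested, all 3 Torin1 libraries were above all 3 WT libraries in CPM for 4.78% and below them for 5.4%.

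The genes nearly unread under Torin1 had varied roles. Ndufb4, a subunit of respiratory complex I, had 4680, 19515 and 11230 mRNA reads in WT and 3, 0 and 1 under Torin1. Foxm1, a transcription factor of the G2 and M phases, had 1052, 20285 and 11013 in WT and 2, 3 and 3 under Torin1. Cdkn1a, the cyclin-dependent kinase inhibitor p21, had 1258, 22154 and 2057 in WT and 0, 0 and 3 under Torin1. All 3 genes kept footprints in every library. Ndufb4 footprints were 470, 760 and 629 reads in WT and 417, 607 and 649 under Torin1, those of Foxm1 617, 2599 and 806 against 1014, 2112 and 1696, and those of Cdkn1a 952, 1630 and 609 against 606, 523 and 470. Hmox1, heme oxygenase, and Mrps34, a mitochondrial ribosomal protein, showed the same split of mRNA reads, with at most 4 reads in any Torin1 library. None of these 5 passed the mRNA test in edgeR, where their adjusted p lay between 0.685 and 1. DESeq2 called Ndufb4, Foxm1, Hmox1 and Mrps34, with DESeq2 adjusted p of at most 2.954e-05, and gave Cdkn1a no p-value. Dph2, Pkn2, Tmem251, Ap1s1 and Thap11, which completed the 8 smallest p-values among lower genes past the WT floor, did not pass in edgeR either, at adjusted p between 0.0722 and 0.723. Of these, DESeq2 called Dph2 and Ap1s1 and gave the others no p-value.

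The reverse class is shown by genes picked after their values were seen. Kansl3, a subunit of the NSL histone acetyltransferase complex, had 0, 3 and 1 mRNA reads in WT and 1267, 16576 and 5346 under Torin1. Atp6v0a1, a membrane subunit of the proton pump that acidifies lysosomes, had 1, 4 and 5 in WT and 1420, 14484 and 5740 under Torin1. Lmbrd1, a lysosomal membrane protein needed for cobalamin export, had 1, 7 and 8 in WT and 7, 4024 and 23986 under Torin1, so its Torin1 libraries were themselves split and it lay outside the class. DESeq2 called Kansl3, Atp6v0a1 and Lmbrd1 higher, while edgeR did not (edgeR adjusted p = 0.6853, 0.8947 and 0.2925). Footprints of the first 2 genes were present throughout: Kansl3 had 438, 1422 and 205 reads in WT and 511, 1609 and 1580 under Torin1, and Atp6v0a1 1044, 3257 and 1086 against 1157, 2833 and 1115.

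**Figure D1:**
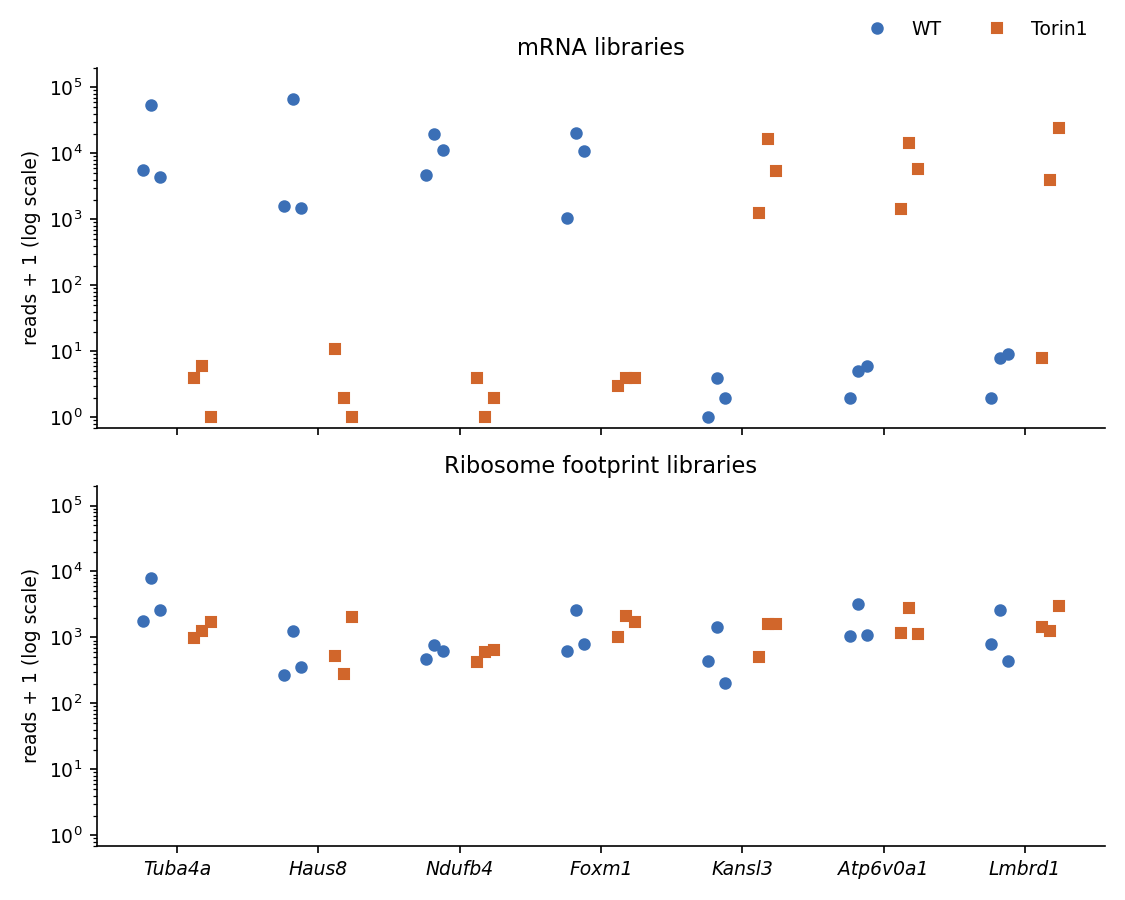
Reads of 7 genes in each mRNA library (top) and each footprint library (bottom), as reads + 1 on a log axis; circles are the 3 WT and squares the 3 Torin1 libraries, in replicate order. In mRNA each gene is at 10 or fewer reads in all libraries of 1 group, while in footprints every library has at least 205 reads of each gene.

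Most genes of both classes had a footprint log2 change within 1 log2 unit of 0. All 54 genes nearly unread in Torin1 mRNA were tested in the footprints, where 1 was called by edgeR, which was Tuba4a, and 3 had an unadjusted p below 0.05. Their median footprint log2 change was 0.02, and 48 of the 54 lay within 1 log2 unit of 0. Of the 44 genes nearly unread in WT mRNA, 0 were called in the footprints by edgeR, with 8 at an unadjusted p below 0.05, their median was 0.34, and 37 lay within 1 log2 unit. Across all 10557 genes tested in the footprints, 1.22% were called lower under Torin1. The shares of these 10557 genes within 1 log2 unit of 0, or at an unadjusted p below 0.05, are not given here. Whether either class differed from other genes in its footprints was not tested.

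A floor of 200 reads in WT alone selects on the WT side, and the direction of the values followed the side chosen. Among the 2495 genes it kept, the median log2 change in mRNA was -0.54, with 7 genes higher and 87 lower at an unadjusted p below 0.05. Among the 2249 genes with 200 or more reads in each Torin1 library the median was 0.23, with 50 higher and 21 lower. Of the genes past the WT floor, 345, 214 and 644 had 10 or fewer reads in Torin1 replicates 1, 2 and 3. Of those past the Torin1 floor, 230, 558 and 203 had 10 or fewer in WT replicates 1, 2 and 3. The 1451 genes with 200 or more reads in all 6 libraries, 58.2% of the first set and 64.5% of the second, treat the groups alike, and the gene groups below rest on them.

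The median log2 change of these 1451 genes was -0.17 with scaling factors (TMM) from all genes tested, and -0.03 with factors from the 1451 genes themselves. WT replicate 2 was the library that moved most, with a factor of 0.616 in the first scaling and 0.932 in the second. Values for gene groups are therefore given relative to the median of the 1451 genes. Fitted on their own, 0 of the 1451 genes were called by edgeR, with 34 higher and 37 lower at an unadjusted p below 0.05. Without Torin1 replicate 3, 0 were called as well, with 25 higher and 26 lower at that level. All 3 Torin1 libraries were above all 3 WT libraries for 60 genes (4.14%) and below them for 76 (5.24%).

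The precision of these genes depended on their abundance. Among the 50 most abundant, at 2280 to 14800 CPM, the median SD of log2 CPM was 0.57 in WT and 0.40 in Torin1, and the log2 differences between the groups ran from -0.85 to 1.23. Among the genes ranked 501 to 1451 the median SDs were 1.33 and 1.11, and the differences ran from -4.08 to 3.81. For the abundant genes a change of 1 log2 unit was therefore rare: 1 of 50 was higher by more and 0 were lower by more. These are plain differences of group means of log2 CPM. The weighted fit of limma-voom can differ from them, as for Rpph1 at -2.1 and Rprl3 at -1.12. Both values lie below the lowest plain difference of -0.85 among the 50 most abundant genes, to which both belong.

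**Figure D2:**
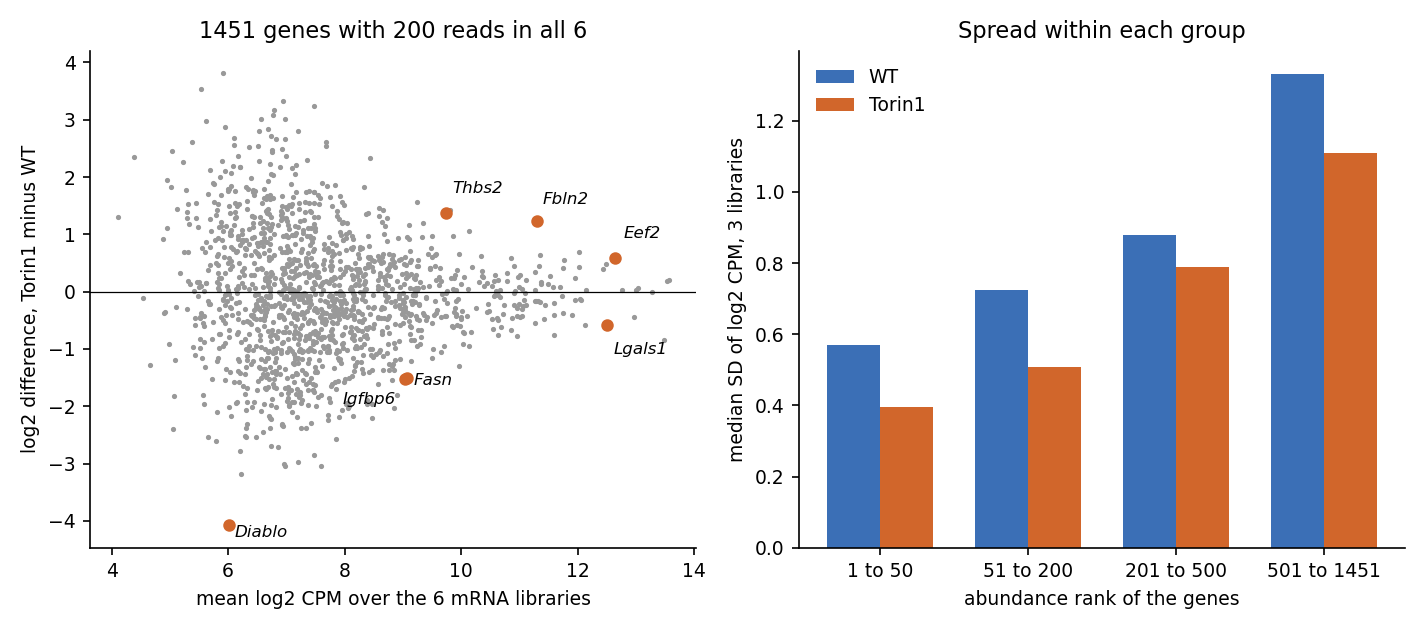
Left, log2 difference in mRNA (Torin1 minus WT, mean of 3 libraries each) against mean log2 CPM for the 1451 genes with 200 or more reads in all 6 mRNA libraries, with 7 genes named; right, median SD of log2 CPM over the 3 libraries of each group by abundance rank, as bars. Differences widen and the SDs grow from 0.57 and 0.40 to 1.33 and 1.11 as abundance drops.

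Fbln2 and Thbs2, 2 matrix genes with low p-values among the 1451, did not pass in edgeR. Of the 39 genes tested in the extracellular matrix list, 0 were called by edgeR or DESeq2 and 3 higher by limma-voom, with 2 higher and 1 lower at an unadjusted p below 0.05 in edgeR. Fbln2, which encodes fibulin-2 of the matrix and basement membranes, stood at 971, 3299 and 1418 CPM in WT and 2841, 4876 and 4221 CPM under Torin1. The ranges overlapped through WT replicate 2 on this scale, and did not overlap with factors from the 1451 genes. Its log2 change was 1.07 ± 0.43 (edgeR adjusted p = 1), and 1.32 ± 0.33 when the 1451 genes were fitted alone (adjusted p = 0.276). Without Torin1 replicate 3 that second value was 1.42 (adjusted p = 0.629). Thbs2, thrombospondin-2, a matricellular protein, stood at 502, 484 and 632 CPM in WT and 1108, 1211 and 1963 CPM under Torin1, with no overlap and a log2 change of 1.41 ± 0.65 (edgeR adjusted p = 1). It was 1.19 without Torin1 replicate 3. Footprints of Thbs2 were called higher, at 1213 ± 192 CPM in WT and 3032 ± 357 CPM under Torin1 (SD, n = 3; log2 change 1.32 ± 0.20, edgeR adjusted p = 0.00725), and those of Fbln2 were not called. Of the 41 genes of the matrix list tested in the footprints, edgeR called 2 higher and 2 lower. Over all 10557 genes tested in the footprints it called 9 higher and 129 lower. Of the collagen I chains, Col1a2 stood at 3052 ± 1321 CPM in WT and 4692 ± 2286 under Torin1, and Col1a1 at 2029 ± 1391 and 1360 ± 567, with overlapping ranges for both.

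Other genes with small p-values did not pass in edgeR either. Higher values under Torin1 with no overlap between groups were seen for Psmc5, an ATPase of the proteasome cap, at 148, 43 and 90 CPM in WT and 313, 431 and 978 CPM under Torin1. Sec61a1, the channel of the endoplasmic reticulum translocon, stood at 161, 60 and 390 CPM in WT and 484, 861 and 1137 CPM under Torin1. Nudt21, of the mRNA cleavage complex, stood at 82.3, 29.2 and 55.7 CPM in WT and 281, 85.9 and 987 CPM under Torin1, with no overlap on this scale. Ccl2, a chemokine, stood at 188, 9.97 and 28 CPM in WT and 114, 285 and 991 CPM under Torin1, so its groups overlapped. With all libraries and then without Torin1 replicate 3, log2 changes were 2.62 and 2.06 for Psmc5 and 2.02 and 1.79 for Sec61a1. They were 3.02 and 1.83 for Nudt21 and 2.62 and 1.455 for Ccl2. Lower values under Torin1 were seen for Diablo, a mitochondrial protein that promotes apoptosis, at 116, 997 and 163 CPM in WT and 16.2, 15.4 and 15.8 CPM under Torin1. Its log2 change was -4.75 ± 1.70 (edgeR adjusted p = 0.96), and -4.63 without Torin1 replicate 3. It was -2.99 without WT replicate 2, and DESeq2 called the gene (adjusted p = 0.00482). Puf60, a splicing factor, stood at 369, 1045 and 449 CPM in WT and 49.5, 144 and 43.7 CPM under Torin1, again with no overlap. Igfbp6, a binding protein of insulin-like growth factors, stood at 711, 2588 and 399 CPM in WT and 311, 255 and 408 CPM under Torin1, which overlapped on this scale.

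WT replicate 2 decided some of the lower values. Acta2, smooth muscle actin, stood at 326, 3902 and 217 CPM in WT and 286, 740 and 75 CPM under Torin1. Its log2 change of -2.01 ± 0.74 (edgeR adjusted p = 0.96) became 0.55 without WT replicate 2. Cyr61, a matricellular immediate early gene, stood at 48, 1632 and 59 CPM in WT and 86, 118 and 200 CPM under Torin1, and its log2 change of -2.10 became 1.50 without that library.

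Other abundant metabolic and structural mRNAs did not pass the test. Pkm, the last enzyme of glycolysis, stood at 4134, 2162 and 3860 CPM in WT and 4892, 5060 and 5814 CPM under Torin1 (log2 change 0.63 ± 0.35, edgeR adjusted p = 1). Vim, the intermediate filament of fibroblasts, stood at 4479, 5660 and 4509 CPM in WT and 5207, 7772 and 7511 CPM under Torin1. Ftl1, the ferritin light chain, stood at 5746, 5654 and 4937 CPM in WT and 4101, 2654 and 4446 CPM under Torin1. Tubb5, a beta-tubulin, stood at 1879, 2655 and 1864 CPM in WT and 2662, 3414 and 3861 CPM under Torin1, so this tubulin lay on the other side from Tuba4a. None of these 4 passed in edgeR, while limma-voom called the first 3. The groups did not overlap for Pkm and Ftl1 on this scale and overlapped with factors from the 1451 genes, while for Vim it was the other way round.

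No mRNA of the translation machinery was called by edgeR. Of the 79 ribosomal protein genes, 76 were tested, 0 were called in either direction, and 1 had an unadjusted p below 0.05; DESeq2 called 0 and limma-voom 3 lower. Over the 75 with 200 or more reads in all 6 libraries, the median log2 change was -0.16, which is 0.01 above that of the 1451 genes, and 0.09 above it without Torin1 replicate 3. They spread evenly, 39 of 75 above the median of the 1451. The median of the list in each library, relative to all 1451 genes, lay between -0.15 and 0.10. The gene below 0.05 was Rps7, of the small subunit, at 1896, 7693 and 1821 CPM in WT and 2320, 1751 and 2111 CPM under Torin1, where WT replicate 2 alone was high. Rps6, the ribosomal protein phosphorylated by S6 kinases, stood at 3775, 5520 and 4319 CPM in WT and 4092, 3741 and 4328 CPM under Torin1 (log2 change -0.16 ± 0.35). The other TOP mRNAs, 24 tested of 26, had 0 called by edgeR and by DESeq2 and 4 called higher by limma-voom, with 2 higher at an unadjusted p below 0.05 in edgeR. Their median over 21 genes was 0.36 above that of the 1451. Eef1a1, the elongation factor that brings aminoacyl-tRNA to the ribosome, stood at 8001, 16640 and 10840 CPM in WT and 8713, 14260 and 17300 CPM under Torin1 (log2 change 0.18 ± 0.25). Eef2, the translocase of elongation, stood at 4756, 5759 and 5153 CPM in WT and 5543, 8948 and 9783 CPM under Torin1, a log2 change of 0.63 ± 0.30 (edgeR adjusted p = 1) and 0.56 without Torin1 replicate 3. Rplp2, of the ribosomal stalk, stood at 484, 741 and 828 CPM in WT and 1244, 2148 and 828 CPM under Torin1. Tpt1, a TOP mRNA, stood at 343, 810 and 687 CPM in WT and 283, 505 and 762 CPM under Torin1, and Pabpc1, the poly(A) binding protein, at 397, 387 and 493 CPM and 318, 162 and 292 CPM. Eif4b, an initiation cofactor and a target of S6 kinases, stood at 539, 314 and 970 CPM in WT and 1074, 1182 and 2514 CPM under Torin1, with no overlap. Of the 26 initiation factors, all 26 were tested, and 0 were called by edgeR, DESeq2 or limma-voom or had an unadjusted p below 0.05 in edgeR.

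The starts of some of these genes are shown because the tract that defines the class can be read there. Each line gives 30 bases of the RefSeq promoter table (GRCm38.p6) on the strand of the gene, from 8 bases before the annotated start to 22 bases after it, and the capitals mark a C followed by 4 or more pyrimidines.
Eef1a1, chr9:78481703-78481732, minus strand: ccgCCCTCTTCCCgagggtgggggagaacg
Rps6, chr4:86857346-86857375, minus strand: agtcgggCCTCTTTTTCgtgacgcctccca
Rps18, chr17:33955644-33955673, minus strand: cttccgCTCTCTCTTCCacaggaggcctac
Rplp2, chr7:141447643-141447672, plus strand: gcgtCTTCCTTTCgccgccggacgccgccg
Eef2, chr10:81176623-81176652, plus strand: ggccgggcgttgacgtcagcggtCTCTTCC
Searched on the strand of the gene only, such a run was found in 35 of the 58 ribosomal protein genes in that table (60.3%) and in 35.7% of all 27025 genes. In Eef2 it begins 15 bases past the annotated start.

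The contrast between mRNA and footprints of these genes was tested as an interaction of assay and treatment over 12 libraries. It was past the threshold for 8 of 5909 genes, or 0.135%: 7 had footprints that were lower than their mRNA change alone would give, and 1 the reverse. The 7 included 4 genes of the translation machinery, whose mRNA had not passed the test. For Eef1a1 the interaction was -3.10 ± 0.41 on the log2 scale (edgeR adjusted p = 0.00345), with footprints at 7994 ± 948 CPM in WT and 1022 ± 45.7 CPM under Torin1. For Eef2 it was -3.03 ± 0.40 (adjusted p = 0.00345), with footprints at 5685 ± 1597 and 1039 ± 107 CPM. For Rps18 it was -2.58 ± 0.41 (adjusted p = 0.019) and for Rpsa -2.58 ± 0.45 (adjusted p = 0.0289). Both encode proteins of the small ribosomal subunit. The remaining 4 were Erdr1, Obsl1 and Atp6v0a1, nearly unread in WT mRNA, and Tuba4a, nearly unread in Torin1 mRNA. The interaction fit gave each gene 1 dispersion for both assays, although mRNA varied more than footprints. Its standard errors for Erdr1, Obsl1, Atp6v0a1 and Tuba4a were 1.74, 2.25, 2.045 and 1.88. Those of the mRNA fit alone were larger, at 5.81, 5.28, 3.815 and 2.48, so the interaction errors of these genes may be too small. All 8 also passed without Torin1 replicate 3, where 6 genes were called in the positive and 28 in the negative direction. Of the 76 ribosomal protein genes tested this way, 2 were called, and 4 without that library. In the footprints alone, 69 of the 76 were called lower, against 1.22% of all 10557 genes tested there.

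**Figure D3:**
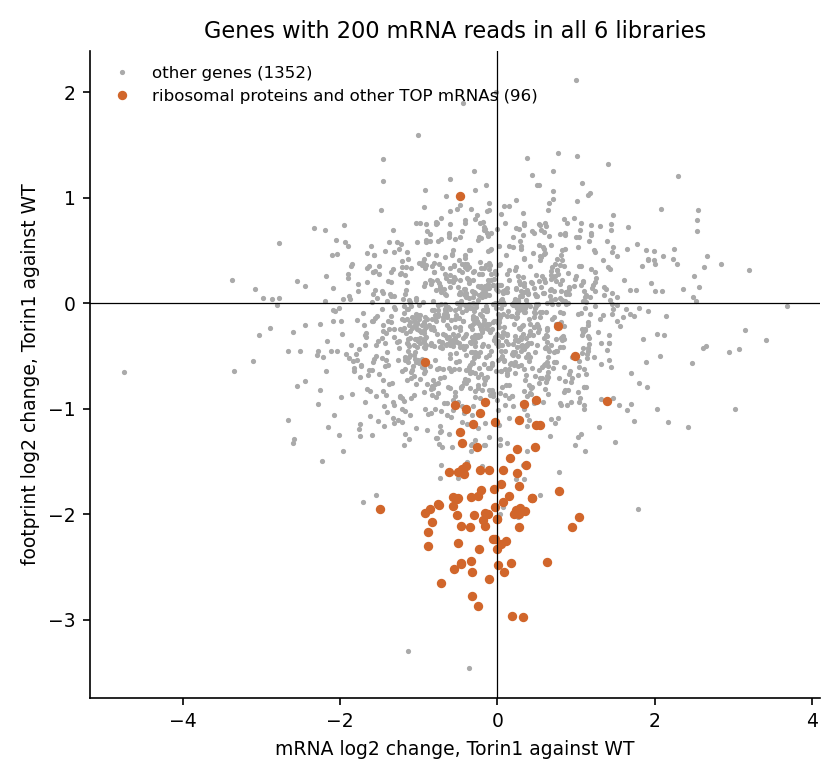
Log2 change under Torin1 in footprints (vertical) against that in mRNA (horizontal) for genes with 200 or more mRNA reads in all 6 libraries and tested in both assays; orange points are ribosomal protein genes and other TOP mRNAs. The orange points spread around 0 on the mRNA axis and lie mostly below 0 on the footprint axis, where the median of the 75 ribosomal protein genes is -1.95.

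Genes of sterol and fatty acid synthesis had the lowest median among the lists with 10 or more genes, and none passed. Of 38 genes, 32 were tested, 0 were called by edgeR, DESeq2 or limma-voom, and 2 were lower and 0 higher at an unadjusted p below 0.05 in edgeR. Over the 20 with 200 or more reads in all 6 libraries, the median lay 0.57 below that of the 1451 genes, and 0.90 below it without Torin1 replicate 3. Relative to all 1451 genes, the list stood at -0.41, 0.06 and 0.15 in the WT libraries and -0.56, -1.05 and -0.23 in the Torin1 libraries, which overlap. Fasn, the fatty acid synthase, stood at 466, 1932 and 783 CPM in WT and 298, 234 and 419 CPM under Torin1, with no overlap, a log2 change of -1.74 ± 0.80 (edgeR adjusted p = 1) and -1.88 without Torin1 replicate 3. With 1 library left out at a time, the log2 change of Fasn ran from -2.15 to -0.82. Its footprints were called lower, at 1211 ± 150 CPM in WT and 548 ± 121 CPM under Torin1 (log2 change -1.14 ± 0.22, edgeR adjusted p = 0.0288). Scap, the escort protein of Srebp precursors, stood at 133, 754 and 287 CPM in WT and 0.421, 29.6 and 33.9 CPM under Torin1. Hmgcs1, of the mevalonate pathway, stood at 226, 1248 and 383 CPM in WT and 285, 6.24 and 161 CPM under Torin1, which overlapped. Insig1, which retains Scap in the endoplasmic reticulum, stood at 749, 316 and 583 CPM in WT and 146, 210 and 447 CPM under Torin1, also overlapping.

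The amino acid response list had 22 of 36 genes tested and 0 called by edgeR, DESeq2 or limma-voom, and 0 at an unadjusted p below 0.05 in edgeR. Its median over 8 genes lay 0.05 below that of the 1451 genes, and 0.01 below it without Torin1 replicate 3. Atf4, the transcription factor itself, stood at 384, 332 and 373 CPM in WT and 91.8, 84.4 and 146 CPM under Torin1. These groups did not overlap, and WT averaged 363 ± 27.3 CPM (SD, n = 3), but the log2 change of -1.76 ± 1.41 did not pass (edgeR adjusted p = 1). It was -1.95 without Torin1 replicate 3, and the footprints gave -1.19 ± 0.33 (adjusted p = 0.15). Its target Psat1, of serine synthesis, stood at 513, 1837 and 1204 CPM in WT and 611, 870 and 1189 CPM under Torin1. Asns, asparagine synthetase, stood at 188, 459 and 135 CPM in WT and 127, 381 and 208 CPM under Torin1. Slc7a5, an amino acid transporter, stood at 52.5, 425 and 108 CPM in WT and 96.7, 92.1 and 519 CPM under Torin1. Psat1 and Asns overlapped between the groups in mRNA, while Psat1 footprints were called lower, at 912 ± 111 and 302 ± 78.5 CPM (edgeR adjusted p = 0.00531).

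Of the glycolysis and hypoxia list, 25 of 33 genes were tested, 0 were called by edgeR or DESeq2, 1 was called higher by limma-voom, which was Pkm, and 0 had an unadjusted p below 0.05 in edgeR. The median over 13 genes lay 0.07 below that of the 1451 genes, and 0.14 below it without Torin1 replicate 3. Ldha, lactate dehydrogenase, stood at 2089, 4071 and 2073 CPM in WT and 901, 1710 and 2336 CPM under Torin1, which overlapped on this scale, with a log2 change of -0.73 ± 0.47 and -0.98 without Torin1 replicate 3. With 1 library left out at a time, the log2 change of Ldha ran from -0.98 to -0.17. Gpi1, of upper glycolysis, stood at 202, 332 and 221 CPM in WT and 374, 526 and 1461 CPM under Torin1, with no overlap (log2 change 1.65 ± 0.90, edgeR adjusted p = 1). Torin1 replicate 3 was the highest, and without it the change was 0.93. Footprints of both were called lower, with log2 changes of -1.17 for Ldha and -1.01 for Gpi1 (edgeR adjusted p = 0.0112 and 0.0204). Slc2a1, the glucose transporter, ranged from 0.257 to 328 CPM within the Torin1 group.

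Tuba4a of the cytoskeleton list was the only member of any list that edgeR called. The lysosome and autophagy list had 47 of 56 genes tested and 0 called by edgeR, with 2 higher and 1 lower at an unadjusted p below 0.05, while DESeq2 called 2 higher and 1 lower. Its median over 24 genes lay 0.10 above that of the 1451, and 0.16 above it without Torin1 replicate 3. Sqstm1, the autophagy receptor p62, stood at 586, 811 and 292 CPM in WT and 701, 661 and 769 CPM under Torin1. The cell cycle list had 42 of 47 tested and 0 called by edgeR, with 2 lower at an unadjusted p below 0.05, while DESeq2 called 1 lower, which was Foxm1. Its median over 20 genes lay 0.51 below the 1451 and 0.16 below them without Torin1 replicate 3. Ccnd1, cyclin D1, stood at 719, 594 and 279 CPM in WT and 195, 310 and 245 CPM under Torin1, which overlapped. The folding and unfolded protein response list had 36 of 39 tested and 0 called by edgeR or DESeq2, with 0 at an unadjusted p below 0.05 in edgeR, while limma-voom called Hspa8 lower. Hspa5, the chaperone BiP, stood at 658, 1086 and 886 CPM in WT and 224, 414 and 555 CPM under Torin1, with no overlap (log2 change -1.14 ± 0.81, edgeR adjusted p = 1). Of the 7 glucose-responsive genes of Mondo factors, 1 was tested. Of the cytoskeleton list, 39 of 43 were tested, with 3 lower at an unadjusted p below 0.05 in edgeR. Both edgeR and DESeq2 called 1 gene lower, Tuba4a, and limma-voom called 1 lower that was not Tuba4a.

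**Figure D4:**
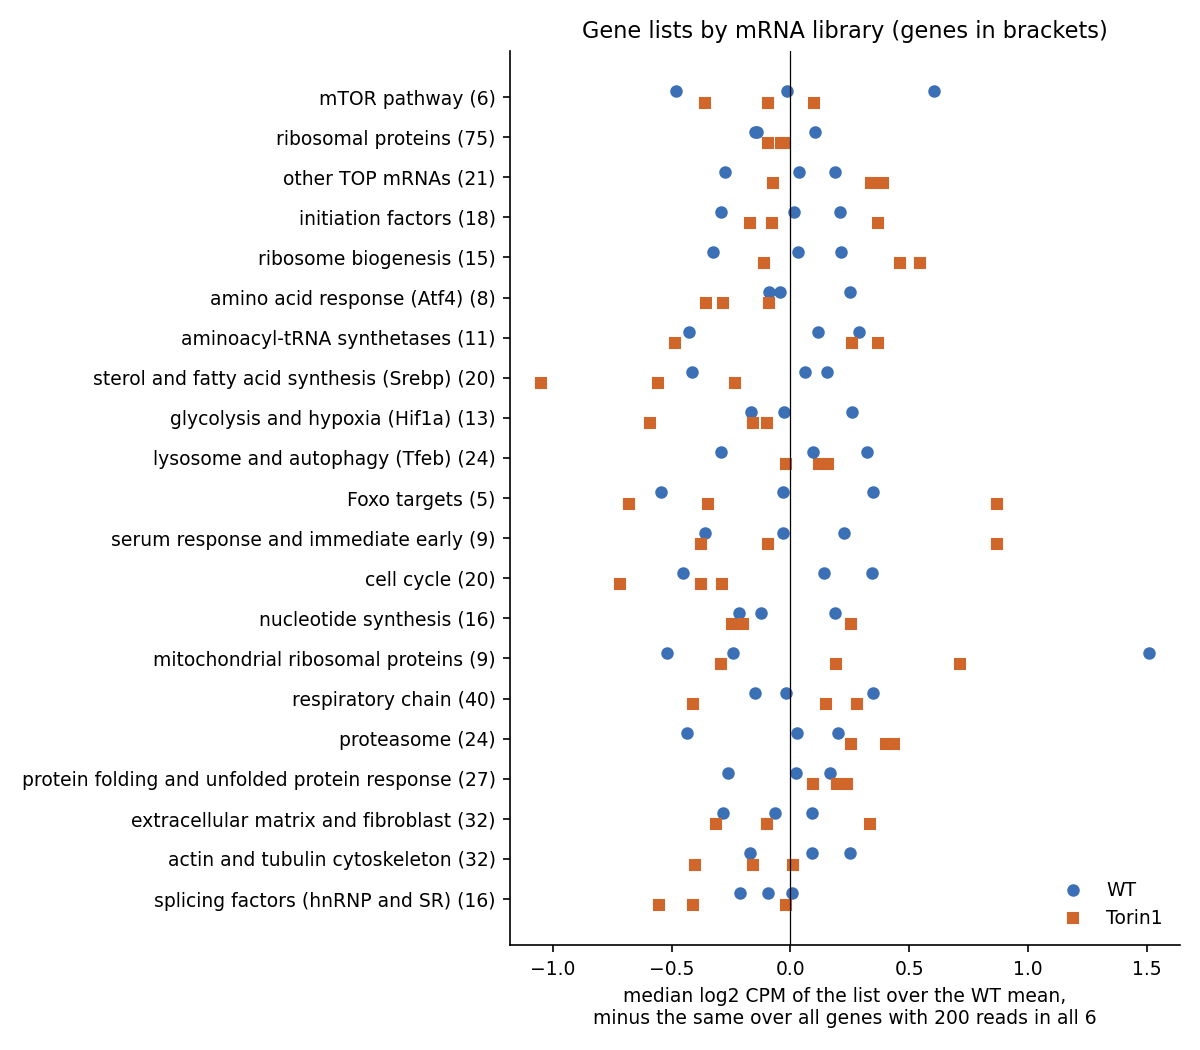
Median log2 CPM of each gene list in each mRNA library, taken over the WT mean of each gene and then relative to all 1451 genes with 200 or more reads in all 6 libraries; circles are the WT and squares the Torin1 libraries, and brackets give the number of genes in the list. Ribosomal protein genes lie within 0.15 of 0 in every library, and the 3 Torin1 libraries of the sterol list lie between -1.05 and -0.23.

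The remaining lists had no gene called by edgeR. Over all 5945 genes tested, 213 had an unadjusted p below 0.05 in edgeR and 146 were called by DESeq2. At that unadjusted level edgeR gave 4 lower of 73 tested for the respiratory chain. It gave 1 higher and 3 lower of 66 for mitochondrial ribosomal proteins and 2 lower of 50 for ribosome biogenesis. There was 1 lower each for Foxo targets (19 tested) and serum response genes (24), and 1 higher each for the mTOR pathway (29) and the proteasome (35). DESeq2 called 3 genes of ribosome biogenesis lower, 2 serum response genes lower, and 1 mitochondrial ribosomal protein higher and 2 lower. It also called 1 gene of the respiratory chain lower and 1 of the mTOR pathway higher, and limma-voom called 0 of these lists. Whether any list differed from the share over all genes was not tested. Medians over genes with 200 or more reads in all 6 libraries, relative to the 1451, often moved when Torin1 replicate 3 was left out. With all libraries and then without it they were 0.04 and -0.09 for the mTOR pathway (6 genes), -0.10 and 0.10 for initiation factors (18), and 0.13 and -0.06 for extracellular matrix (32), so these turned sign. They were -0.05 and -0.55 for aminoacyl-tRNA synthetases (11), 0.26 and 0.49 for Foxo targets (5), 0.26 and 0.72 for serum response genes (9), 0.32 and 0.17 for nucleotide synthesis (16), and -0.15 and -0.08 for ribosome biogenesis (15). For the respiratory chain (40) they were -0.06 and -0.11, for folding (27) 0.20 and 0.31, and for the cytoskeleton (32) -0.13 and -0.07. The proteasome was at 0.31 and 0.32 (24), mitochondrial ribosomal proteins at -0.31 and -0.42 (9), and splicing factors at -0.29 and -0.26 (16). The proteasome list stood at 0.03, -0.44 and 0.20 in WT and 0.40, 0.26 and 0.43 under Torin1, so its libraries did not overlap in this measure, which held for 1 of the 21 lists plotted, and 3 of its 24 genes had Torin1 libraries all above WT and 2 all below, against 4.14% and 5.24% of the 1451 genes.

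Several genes of interest for mTOR could not be measured in these libraries. Mtor itself had 0 reads in the 3 WT libraries and 0, 285 and 0 under Torin1. Ddit4, an inhibitor upstream of mTORC1, had 0, 433 and 483 reads in WT and 0, 1 and 1 under Torin1. The Foxo target Irs2, an insulin receptor substrate, had 0, 2 and 4 in WT and 0, 9976 and 6274 under Torin1, and Txnip, an inhibitor of glucose uptake, 0, 1 and 0 in WT and 0, 3101 and 1757 under Torin1. Sesn3, a sestrin and Foxo target, had reads in Torin1 replicate 1 only, where there were 816. These genes were at or near 0 in some libraries of both groups and were not tested. Myc had 453, 29886 and 0 reads in WT and 961, 5378 and 1221 under Torin1, and its log2 change of -1.37 had a standard error of 2.21.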

How the data were processed

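The authors deposited raw read counts per gene for each library; per the submitters' processing notes Bowtie 1.1.2, TopHat2 2.1.1 and HTSeq were used with mm10. The 5 summary lines of each file and 27 lines whose gene name had become a date were dropped (0.101 to 0.234% of gene counts in the 6 mRNA libraries). Reads placed at several sites, which the counts leave out, were 49.3 to 75.1% of all reads in these libraries, and near-identical gene copies may share reads. Whether counting used strand is not given in the sources used here.

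Libraries were grouped by their labels. edgeR 4.0.16 (R 4.3.3) fitted group means to the 6 mRNA libraries after filterByExpr, with TMM factors and a quasi-likelihood test, two-sided, adjusted by Benjamini-Hochberg over all genes tested. CPM values use these factors. The interaction used 12 libraries with TMM within each assay. The median biological coefficient of variation was 1.93, against 0.53 in footprints. DESeq2 1.42.0 and limma 3.58.1 were alternatives, and scripts were tested on simulated data. These had less spread than the mRNA libraries and did not model genes lost in single libraries, so they do not give the power or the false calls here. Errors are standard errors for log2 changes and SD for CPM. For edgeR the standard error was derived from the test, as the size of the log2 change over the square root of its F statistic.

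Genes named are called genes, up to 8 with 200 or more reads in each WT library and the smallest p in each direction, the member of each of 28 gene lists with the smallest p in each direction, and a fixed list of mTOR-related genes, of which 1 is not reported here; genes called in the interaction and Lgals1, Acta2, Foxm1, Kansl3, Lmbrd1, Vim, Pkm, Ftl1, Diablo, Puf60 and Igfbp6 were added after values were seen. The members and lists were chosen with earlier results of these data known. Names were matched to RefSeq (GRCm38.p6) by symbol for 22550 of 24035 genes.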

Additional observations from a re-analysis of the deposited data

How the results depend on the processing

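Counts of called genes were small and moved with most choices. Against 2 in mRNA over all genes tested, there were 0 with DESeq2 size factors or TMM factors from the 1451 genes, 146 with DESeq2, 18 with limma-voom, 4 with robust empirical Bayes, 1 with a mean of 200 reads as the filter, 1 over all 9 mRNA libraries, and 0 to 9 when 1 library was left out (0 without WT replicate 2, Torin1 replicate 2 or Torin1 replicate 3, 9 without Torin1 replicate 1). Among genes past the WT floor, against 2, there were 0 with DESeq2 size factors, TMM factors from the 1451 genes, all 9 libraries, those genes fitted alone, the 1451 fitted alone, or a floor in the Torin1 libraries instead, 46 with DESeq2, 18 with limma-voom, 4 with robust empirical Bayes, 1 with the mean filter, and 0 to 7 with 1 library left out. In the interaction, against 8, there were 211 with DESeq2, 5 with limma-voom, 13 without a filter, 22 with the mean filter, 2 over all 18 libraries, and 29 to 130 with 1 library left out. The causes were not tested. The TMM factors and fits of the 1451 genes were chosen after the data were seen.

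With replicate number as a block, 0 genes were called in mRNA, 0 past the WT floor and 2 in the interaction. Deviations of same-numbered WT and Torin1 libraries correlated at 0.0114, -0.0177 and 0.0148, and number 3 was the only one whose libraries both correlated best with each other. These deviations include the genes lost in single libraries, so they cannot decide whether same-numbered libraries share more than a number.

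Signs of uncalled log2 changes turned for 13 of 60 named genes under some alternative. Rps6 was at 0.0113 with DESeq2 size factors and in DESeq2. Asns was at 0.24 and Myc at 4.33 in limma-voom, and Myc at 2.45 in the block fit. With genes past the WT floor fitted alone, Col1a1 was at 0.0424, Rps6 at 0.34, Tpt1 at 0.26, Asns at 0.47 and Psat1 at 0.17; Asns was at 0.12 with factors from the 1451 genes and with these fitted alone. With 1 library left out, the ranges were -3.12 to 0.55 for Acta2, -0.95 to 0.28 for Col1a1, -0.0676 to 0.67 for Eef1a1, -0.32 to 0.16 for Rps6, -0.11 to 0.34 for Rps18, -1.29 to 0.31 for Rps7, and -0.56 to 0.16 for Tpt1. They were -0.68 to 0.71 for Asns, -0.81 to 0.20 for Psat1, -0.92 to 1.75 for Slc7a5, -2.05 to 3.48 for Myc, -2.72 to 1.50 for Cyr61 and -0.0299 to 0.86 for Sqstm1. Tuba4a and Haus8 stayed lower in every alternative that held them and lost their call in 9 and 10 of these. Of 176 list medians under alternatives, 162 moved by less than the SD between libraries.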
